A study of Danio rerio with 6 samples.

Results

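The genes examined were 10 zebrafish genes that act at the end of the complement cascade or regulate it, out of 32520 genes in the count table. They were taken by symbol: the terminal components *c5*, *c6*, *c7a*, *c7b*, *c8a*, *c8b* and *c9*, the serine protease gene *cfd*, and the regulator genes *rca2.1* and *rca2.2*. Each symbol led to a single Ensembl gene. The gene called *c6* here is ENSDARG00000057113, which the name table lists as *c6.2*, and *rca2.2* is ENSDARG00000095512. The others are *c5* (ENSDARG00000021004), *c7a* (ENSDARG00000042172), *c7b* (ENSDARG00000057121), *c8a* (ENSDARG00000039516), *c8b* (ENSDARG00000039517), *c9* (ENSDARG00000016319), *cfd* (ENSDARG00000039579) and *rca2.1* (ENSDARG00000056075). Of the 10 genes, 9 had at least 1 read in any library and 6 had a mean level above the highest floor of the libraries.

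RNA-Seq was carried out on ventricles of wild-type fish bred from the AB and TU strains, with 3 libraries from old fish (4 years, replicates 1, 3 and 5) and 3 from young fish (7 months, replicates 1, 2 and 5). The strain background is that of the study's methods, and the labels name no treatment, transgene, mutation or sex for either group, only the age. The libraries were chosen by RNA integrity from a larger set of samples, and whether a library came from 1 ventricle or a pool was not stated. P-values therefore measure the spread between these libraries, which may in part be technical. The question was which of these genes changed in the ventricle with age.

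The complement cascade is a set of blood proteins that mark and lyse microbes and damaged cells. Its activation routes meet at the cleavage of C3 and then of C5, after which C5b binds C6, C7, C8 and several copies of C9 to form the membrane attack complex, a pore in the target membrane. In mammals most of these proteins are made by the liver, factor D (the product of *Cfd*, also called adipsin) comes largely from fat cells, and regulators with complement control repeats keep the convertases in check on the body's own cells.

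Total counts per library ranged from 17742389 to 22547518. Levels are given as CPM, which are counts relative to the library size after TMM scaling. A count of 0 allows up to 3 counts, and this limit, the floor of a library, corresponded to 0.124 to 0.161 CPM (counting error only). Pairwise correlations of the libraries ranged from 0.911 to 0.969, and old replicate 1 lay apart from the other 2 old libraries on the second principal component (20.6% of the variance). The libraries carried genes of heart muscle, led by *myl7* with a mean of 22830 CPM. The 6 genes of that marker list summed to 54523 to 64670 CPM in old and 58000 to 74857 CPM in young libraries. This sum does not tell the chambers of the heart apart.

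*c6* and *rca2.2* were up-regulated in old ventricles, 4.53-fold and 5.83-fold by the ratio of mean CPM. None of the 10 was called lower in old ventricles. The 2 calls among 9 genes tested stand beside 0.858% of all 24835 tested genes called in either direction, 0.519% higher and 0.338% lower in old (edgeR quasi-likelihood test, Benjamini-Hochberg adjusted p under 0.05). Of the 6 genes above the floor, *c6*, *c7b* and *rca2.2* had higher and *c7a*, *cfd* and *rca2.1* lower fitted values in old ventricles. *c7b* was above the floor only through the old libraries, with a young mean of 0.066 CPM. The median log2 fold change of the 6 genes was 0.96. It falls in the gap between *rca2.1* at -0.26 and *c6* at 2.18, so it describes no gene of the set and no common rise. The median over the 17301 genes above the same floor was -0.004. All old libraries were above all young ones for 3 of 9 genes (*c6*, *c7b* and *rca2.2*), beside 10.4% of all tested genes. None had all old libraries below all young ones, against 9.66% of all tested genes. In bulk tissue, more cells of a type and more RNA per cell cannot be told apart.

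**Figure D1:**
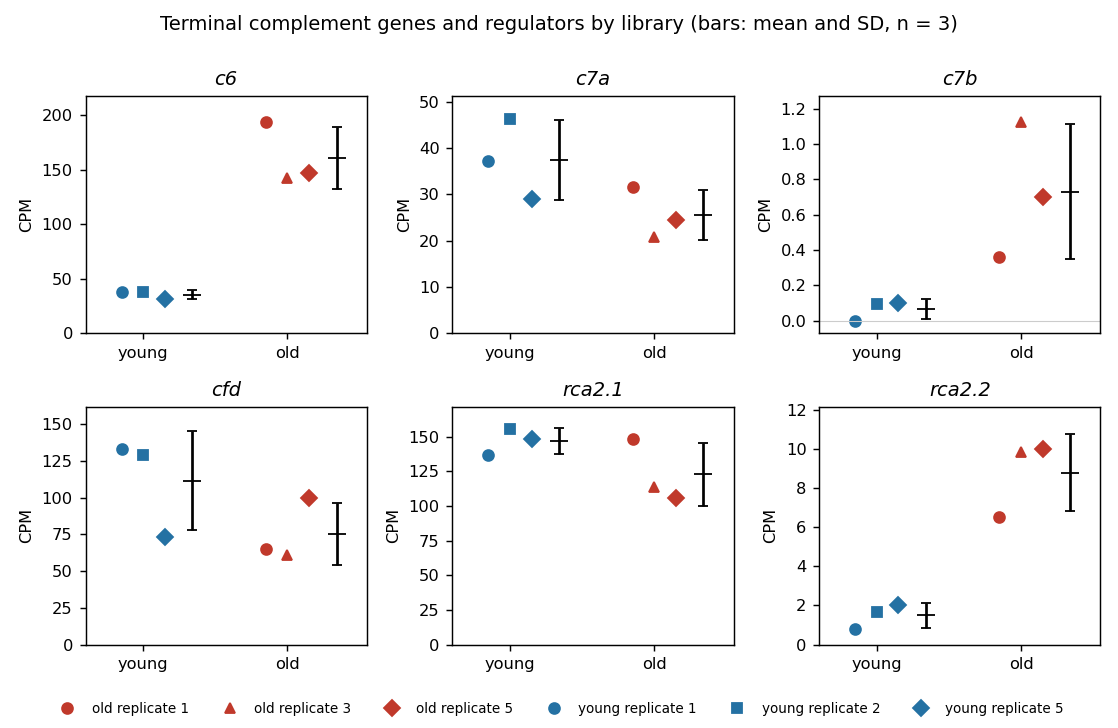
Level of the 6 genes above the floor in each library, in CPM (vertical axes, each with its own range), by age group (horizontal axis). The vertical axes start at 0, except that of *c7b*, which starts slightly below 0. Symbols are single libraries, and the bars give the mean and SD of 3 libraries. The old libraries lay above all young libraries for *c6*, *c7b* and *rca2.2*, and the groups overlapped for *c7a*, *cfd* and *rca2.1*.

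*c6*, which encodes the component that binds C5b at the start of pore assembly, had 4269, 2663 and 3544 counts in old replicates 1, 3 and 5, and 749, 786 and 609 counts in young replicates 1, 2 and 5. Values are given in this order of libraries throughout. After scaling this was 193, 143 and 146 CPM in the old and 37.5, 38.0 and 31.1 CPM in the young libraries. Every old library stood far above every young one, and old replicate 1 was the highest. The means were 161 ± 28.3 CPM in old and 35.5 ± 3.84 CPM in young ventricles (SD, n = 3). The log2 fold change was 2.18 with a standard error of 0.19 and a 95% interval of 1.75 to 2.61, and the adjusted p was 0.0024 by edgeR's quasi-likelihood test. By unadjusted p, *c6* ranked 8 among all tested genes. Each of the 15 other settings also called it, over alternatives of scaling, filter, tool, fit, block and library left out, with adjusted p-values from 3.4e-20 with DESeq2 to 0.040 without young replicate 2.

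The next component, C7, is encoded by a pair of genes with opposite fitted directions. C7 joins the C5b and C6 complex and lets it insert into the membrane. *c7a* had 696, 389 and 590 reads in old against 744, 957 and 567 in young libraries. In CPM this was 31.5, 20.8 and 24.4 in old against 37.2, 46.2 and 29.0 in young. Old replicate 1 was above young replicate 5, so the groups overlapped. The means were 25.6 ± 5.46 and 37.5 ± 8.65 CPM (SD, n = 3), with a log2 fold change of -0.55 (standard error 0.23, 95% interval -1.07 to -0.03) that did not pass (adjusted p = 0.30, edgeR quasi-likelihood test). Its fitted value was below 0 in each of 15 other settings and past the threshold in 0 of them.

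*c7b*, the other copy, was close to the floor. It had 8, 21 and 17 reads in old against 0, 2 and 2 in young libraries. All old libraries were higher than all young ones, but each young library was below the floor of 3 counts. The old and young sums of 46 and 4 counts gave a ratio of 10.7 after scaling, with an exact counting interval of 3.90 to 40.8 at 95% that leaves out the spread between libraries. The edgeR test gave an adjusted p of 0.12 (unadjusted p = 0.0038). Among 14 other settings the gene passed in 1, DESeq2 (adjusted p = 0.033), with adjusted p-values of 0.033 to 0.45 over the settings. In the RefSeq annotation of the GRCz12tu assembly *c6* and *c7b* are next to each other and their spans overlap. Counting here used strand and discarded reads overlapping several genes. It was done on Ensembl genes of GRCz11, where the spans of these genes were not checked. How an overlap bears on the reads of *c6* or the few reads of *c7b* was not tested.

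The genes of C5, of the alpha and beta chains of C8 and of C9 were hardly seen in the ventricle. *c5*, which encodes the protein whose cleavage starts the terminal pathway, had 0 counts in all 6 libraries. *c8a*, for the alpha chain of C8, had 0, 1 and 2 reads in old against 1, 0 and 0 in young libraries. *c9*, whose product forms the wall of the pore, had 0, 1 and 1 reads in old libraries and 0 in each young library. No fold is given for these genes, because both groups were at or under the floor. *c8b*, for the beta chain, had 1, 1 and 4 reads in old against 3, 1 and 3 in young libraries, a ratio of 0.795 with an exact counting interval of 0.221 to 2.76. A change in *c5*, *c8a*, *c8b* or *c9* was not detectable at this depth.

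*cfd* encodes the protease that cleaves factor B in the alternative pathway. It had 1432, 1142 and 2416 reads in old against 2663, 2671 and 1430 in young libraries, or 64.9, 61.1 and 99.8 CPM in old and 133, 129 and 73.0 CPM in young. Young replicates 1 and 2 were the highest, and young replicate 5 lay within the range of the old libraries. The means were 75.3 ± 21.3 CPM in old and 112 ± 33.7 CPM in young ventricles (SD, n = 3). The log2 fold change of -0.57 (standard error 0.27, 95% interval -1.18 to 0.04) did not pass the threshold (adjusted p = 0.37, edgeR quasi-likelihood test) and did not pass in any of 15 other settings.

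The regulator genes *rca2.1* and *rca2.2* are neighbours in the GRCz12tu annotation and are named after the regulators of complement activation, the family that in mammals holds CD46 and CD55. *rca2.2* had 144, 184 and 243 reads in old against 16, 35 and 40 in young libraries. Its levels were 6.53, 9.85 and 10.04 CPM in old and 0.801, 1.69 and 2.04 CPM in young. The lowest old library was still above the highest young one. The means were 8.81 ± 1.98 and 1.51 ± 0.64 CPM (SD, n = 3), and the log2 fold change was 2.54 (standard error 0.38, 95% interval 1.69 to 3.39, adjusted p = 0.023, edgeR quasi-likelihood test). The call was held by 11 of 15 other settings. The 4 settings that lost it included the fits without young replicate 1 (adjusted p = 0.063), without young replicate 2 (0.13) and with a minimum of 10 reads summed over the libraries (0.055), with adjusted p-values between 1.5e-07 and 0.13 over all settings.

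*rca2.1* did not pass the test. It had 3279, 2124 and 2569 reads in old against 2733, 3216 and 2903 in young libraries, which is 149, 114 and 106 CPM in old and 137, 155 and 148 CPM in young. Old replicate 1 lay within the young range and the other 2 old libraries below it. The means were 123 ± 22.6 and 147 ± 9.36 CPM (SD, n = 3), with a log2 fold change of -0.26 (standard error 0.18, 95% interval -0.65 to 0.14, adjusted p = 0.55, edgeR quasi-likelihood test). None of 15 other settings called it.

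**Figure D2:**
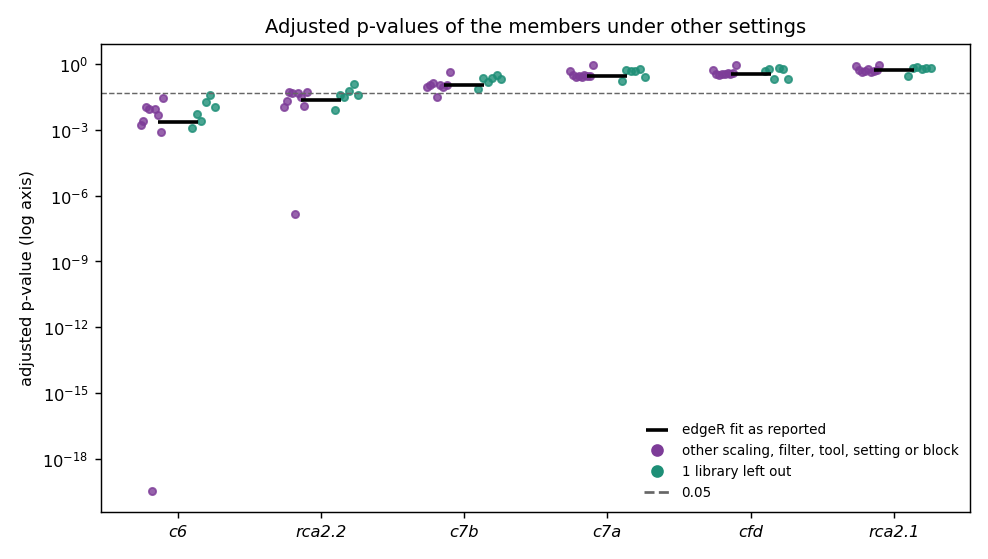
Adjusted p-value (vertical log axis) of the 6 genes above the floor (horizontal axis) under the edgeR fit as reported (black bar), under other scalings, filters, tools, fit settings and the replicate block (purple), and with 1 library left out (green). The dashed line is 0.05. All 15 other settings of *c6* and 11 of 15 of *rca2.2* lay under it, with 1 of 14 of *c7b* and 0 of *c7a*, *cfd* and *rca2.1*.

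Ratios of counts of 2 genes within a library need no scaling between libraries. These 7 ratios were chosen after the values had been seen, and an exact permutation test (two-sided) of 3 against 3 libraries cannot go below p = 0.1. There were 6.13, 6.85 and 6.01 counts of *c6* for each count of *c7a* in the old libraries and 1.01, 0.821 and 1.07 in the young ones. The groups did not overlap and the ratio was 6.57-fold higher in old (geometric means, exact permutation p = 0.1, 0.14 after adjustment over the 7 ratios). Counts of *c6* relative to *rca2.1* were 5.43-fold and relative to *cfd* 6.61-fold higher in old, both without overlap and with the same p.

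Within the regulator pair, *rca2.2* had 0.0439, 0.0866 and 0.0946 counts for each count of *rca2.1* in the old and 0.0059, 0.0109 and 0.0138 in the young libraries. All old ratios were higher, 7.43-fold by geometric means (exact permutation p = 0.1, the smallest possible). The ratio of *cfd* to *c7a*, both with fitted values below 0, was 2.06, 2.94 and 4.09 in old and 3.58, 2.79 and 2.52 in young libraries. These overlapped, with a fold of 0.994 and an exact permutation p of 1.

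**Figure D3:**
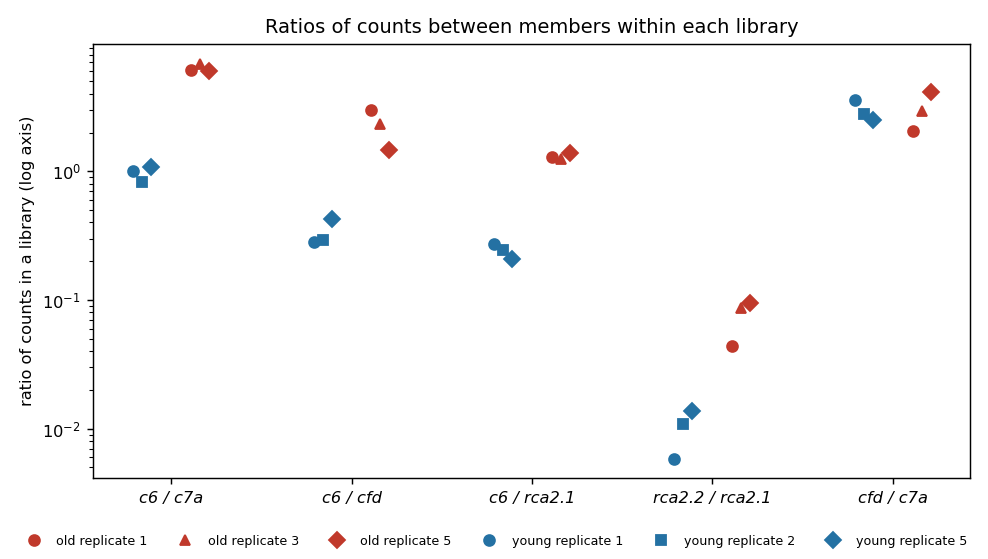
Ratio of the counts of 2 genes within each library (vertical log axis) for 5 of the 7 gene pairs computed (horizontal axis). Symbols are single libraries of old (red) and young (blue) ventricles. The groups separated for the 3 ratios with *c6* on top and for *rca2.2* over *rca2.1*, and overlapped for *cfd* over *c7a*.

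The list of other terminal genes held a further *c6* copy, *c8g*, *clu*, *cd59* copies and vitronectin copies. *c6.1* (ENSDARG00000093052), the copy that the name table sets beside *c6.2*, had 609, 440 and 812 reads in old against 268, 141 and 150 in young libraries. All old libraries were higher, at 27.6, 23.6 and 33.5 CPM against 13.4, 6.81 and 7.66 CPM. Its log2 fold change of 1.60 (standard error 0.28, 95% interval 0.96 to 2.24) passed narrowly (adjusted p = 0.043, edgeR quasi-likelihood test) and in 7 of 15 other settings, with adjusted p-values from 0.00012 with DESeq2 to 0.19 without young replicate 2. The call was also lost without old replicate 5 (0.061), without young replicate 5 (0.13), with a minimum of 10 summed reads (0.079), with filterByExpr (0.068), with limma-voom (0.056) and with bias-adjusted deviances (0.063). Reads that fitted both copies had been discarded, so the split between the copies is uncertain. The ratio of *c6* to *c6.1* counts overlapped between the groups (fold 1.43, exact permutation p = 0.2).

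Besides *c6.1*, no other gene of that list passed in the edgeR fit. *c8g*, for the third chain of C8, had 0, 2 and 4 reads in old against 1, 0 and 0 in young libraries. *cd59a*, a homolog of the mammalian inhibitor that blocks C9 from joining the pore, had 178, 2 and 46 reads in old against 6, 1 and 4 in young libraries. Old replicate 3 lay within the young range, and the adjusted p was 0.15 (0.0096 with DESeq2, 0.034 without old replicate 3, up to 0.46 over 14 other settings). *cd59b* had 0, 17 and 12 reads in old against 6, 4 and 0 in young libraries (adjusted p = 0.62, edgeR). *clu*, for clusterin, which in mammals binds the fluid-phase complex, had 721, 241 and 497 reads in old against 102, 471 and 321 in young libraries (log2 fold change 0.58, standard error 0.49, adjusted p = 0.62, edgeR). The 2 vitronectin genes had at most 2 counts in any library.

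Including these, the rest of the pathway was followed with a list of 51 other complement symbols, of which 42 matched 45 genes and 41 genes had reads. Of the 41, 3 passed the threshold in the edgeR fit, all higher in old (*c4*, *c4b* and *c6.1*), and 0 lower, beside the 0.519% and 0.338% of all tested genes. With DESeq2, 13 of the 41 passed, all higher, beside 1229 of all 24835 tested genes in either direction. The paper, with DESeq2 and a list of its own, reported 17 of 42 complement components as up-regulated in old ventricles. In the edgeR fit, 17 of the 41 genes here had an unadjusted p under 0.05, all higher, beside 15.1% of all tested genes in either direction. *c4* had 3297, 1245 and 2828 counts in old and 519, 354 and 402 in young libraries (log2 fold change 2.39, standard error 0.30, adjusted p = 0.013, edgeR), and *c4b* had 452, 236 and 736 against 46, 33 and 17 (3.73, standard error 0.43, adjusted p = 0.0070, edgeR). Both encode C4 proteins, which upon cleavage join the C3 convertase. Without young replicate 2 neither passed (adjusted p = 0.12 and 0.097) and the list held 0 calls. Among the 26 genes above the floor, 25 had higher fitted values in old and 1 (*c1qbp*) lower, with a median log2 fold change of 1.73. Of all 17301 genes above the floor, 49.6% had higher fitted values. The floor applies to the mean of all libraries, so a gene with a young mean under it could only count as higher. Such genes were *c3b.1* (young mean 0.034 CPM), *c3b.2* (0.083), *c3ar1* (0.083), *itgam.2* (0.114), *c3a.4* (0.119) and *c5ar1* (0.134). The young mean of *mbl2* was also under the floor. The count of 25 and the median of 1.73 include all of these genes. Both therefore rest in part on directions that the filter had fixed.

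In the set described first, 3 of 6 genes above the floor had lower fitted values, in the same fit. A test of that contrast between the lists was not made, since both were chosen with results known.

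**Figure D4:**
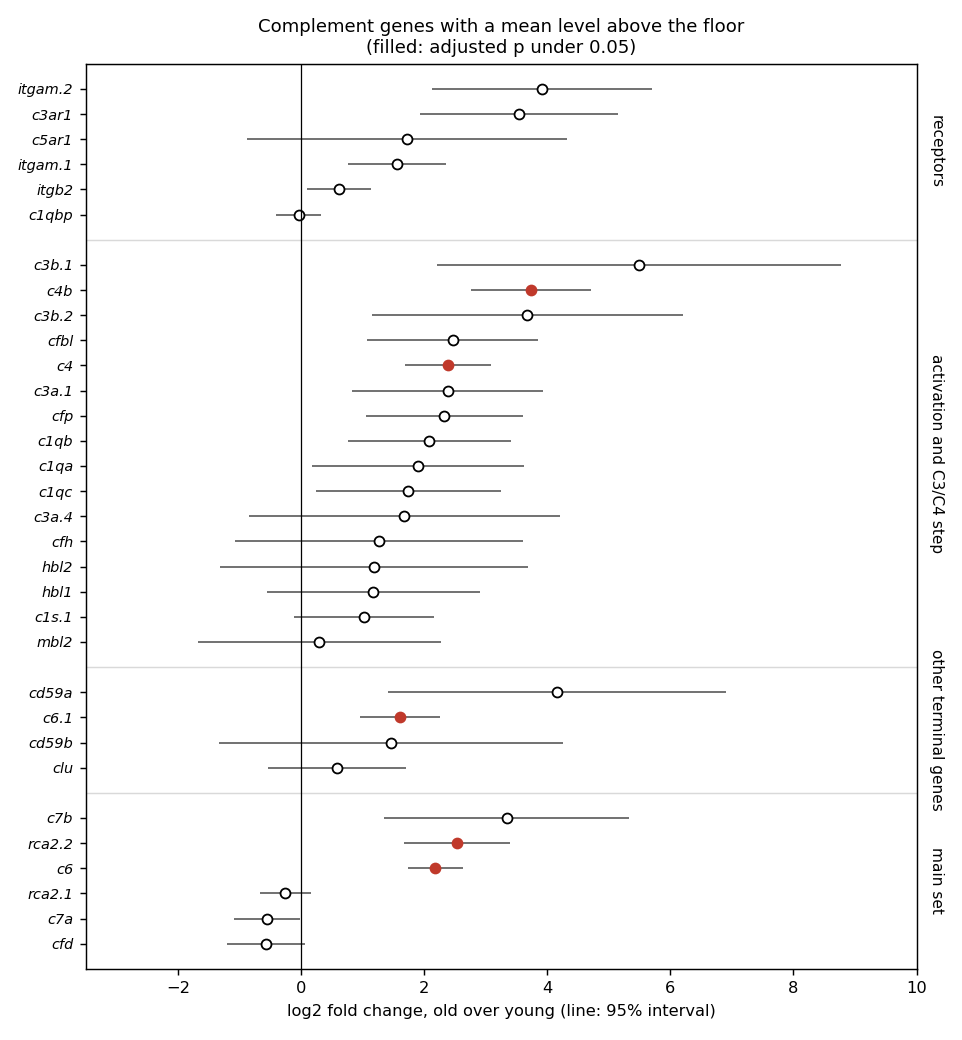
Fitted log2 fold change of old over young ventricles (horizontal axis, line: 95% interval) for the complement genes above the floor, in 4 groups, with the terminal genes and regulators described first as the main set at the bottom. Filled points passed an adjusted p of 0.05. In the main set *c6* and *rca2.2* passed and *c7a*, *cfd* and *rca2.1* lay left of 0, while 25 of 26 other genes lay right of it. Genes with a young mean under the floor entered through the old libraries and could only lie right of 0.

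Marker lists of other cell types were summed per library and set beside these genes. The macrophage list of 12 genes, led by *cd74a*, summed to 1017, 298 and 756 CPM in the old and 276, 207 and 152 CPM in the young libraries. In it 11 genes were higher at an unadjusted p under 0.05 and 1, *lcp1*, passed the threshold. The paper describes *lcp1* as a marker of leukocytes in general, so this call is not particular to macrophages. The sum of the list was mostly *cd74a* (279 CPM in old and 108 CPM in young on average) and *cd74b* (172 and 43.7 CPM). It is therefore not a count of macrophages. The groups of the macrophage list did not overlap, but the lowest old library (298 CPM) was close to the highest young one (276 CPM). For *c6* these bounds were 143 and 38.0 CPM, and for *rca2.2* 6.53 and 2.04 CPM. Old replicate 1 was the highest library for both the list and *c6*, while *rca2.2* was lowest there among the old libraries. The list differed 3.42-fold between the highest and the lowest old library, *c6* 1.36-fold and *rca2.2* 1.54-fold. By in situ hybridization the paper found *c6* mostly in non-immune cells, near the atrium and bulbus and in pericardial fat. It drew no quantitative comparison of the ages from this staining. The part of macrophages in the levels of *c6* and *rca2.2* was not tested here. The erythrocyte list of 4 genes was lower in old without overlap, 403 to 439 CPM against 802 to 2371 CPM. Its most abundant gene, *hbaa1*, was called lower (log2 fold change -1.99, edgeR adjusted p = 0.031). The part of erythrocytes was not tested either.

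The liver and fat lists bear on the usual sources of these proteins. The 20 liver genes summed to 95.1 to 134 CPM in old and 104 to 142 CPM in young libraries, most of it from *rbp4*, and 7 of them had at most 3 counts in every library, among them *ttr*, *serpina1*, *fgg* and *plg* (the last at 0 throughout). The 10 fat cell genes summed to 119 to 180 CPM in old and 123 to 163 CPM in young libraries, led by *acsl1*, and 4 of them had at most 3 counts in every library, among them *plin1* and *lepa*. Above the floor were 9 of the liver genes and 6 of the fat cell genes. Neither summed list separated the groups, and neither held a gene past the threshold. On average *rbp4* had 91.5 CPM in old and 108 CPM in young libraries, and *acsl1* had 134 CPM in both. The sums mostly followed these genes and say little about the others of either list. At an unadjusted p under 0.05, 2 liver genes were higher and 2 lower in old, and 2 fat cell genes were higher, of 19 and 9 tested. Of all tested genes 15.1% passed this cut in either direction. Among the liver genes *tfa*, for transferrin, had 227, 147 and 922 reads in old against 78, 129 and 112 in young libraries (log2 fold change 1.83, edgeR adjusted p = 0.15), with all old libraries above all young ones. The other higher liver gene, *ambp*, had 3, 20 and 41 reads against 4, 2 and 7 (2.13, edgeR adjusted p = 0.29). Its old replicate 1 lay within the young range. The 2 lower liver genes had all old libraries below all young ones. *apobb.1* had 0, 1 and 4 reads in old against 9, 5 and 25 in young libraries (log2 fold change -3.02, edgeR adjusted p = 0.20). *hpxb* had 6, 2 and 6 against 21, 7 and 13 (-1.66, edgeR adjusted p = 0.27). The 2 fat cell genes were *cidec*, for a lipid droplet protein, with 5, 20 and 28 reads in old against 2, 4 and 4 in young libraries (log2 fold change 2.26, edgeR adjusted p = 0.19), and *pparg*, for a regulator of fat cell formation, with 5, 11 and 24 against 4, 3 and 1 (2.14, edgeR adjusted p = 0.23). Both were above all young libraries in each old library after scaling. In old replicate 1 this rested on 5 counts of each gene, against at most 4 in a young library, near the floor. *tfa*, *ambp*, *apobb.1*, *hpxb*, *cidec* and *pparg* were named after their values had been seen. Over the same libraries *cfd* ranged from 61.1 to 133 CPM, and the part of liver or fat cells in the levels of these genes was not tested.

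The sums of the remaining lists overlapped between the age groups. The 11 epicardial and fibroblast genes summed to 419 to 661 CPM in old and 533 to 789 CPM in young libraries. The 3 atrial genes summed to 2958 to 3323 CPM in old and 2465 to 4408 CPM in young. For the 2 genes of bulbus smooth muscle the sums were 48.3 to 113 CPM and 93.9 to 129 CPM. These lists held 0 genes past the threshold. The atrial sum was mostly *nppa* (3098 CPM in old and 3151 CPM in young on average). *myh6* of that list, named after its values had been seen, differed between libraries. It had 667, 165 and 749 reads in old against 6020, 184 and 120 in young libraries (log2 fold change -2.17, edgeR adjusted p = 0.46). Why young replicate 1 stood apart was not tested, and neither was the part of atrial tissue in the levels of *c6* and *rca2.2*. The bulbus sum was mostly *acta2* (76.5 CPM in old and 112 CPM in young on average), while *elnb*, an elastin gene named after its values had been seen, had 40, 25 and 313 reads in old against 9, 0 and 22 in young libraries. Its old libraries were all above the young ones (log2 fold change 3.35, edgeR adjusted p = 0.20), and its part in the levels of *c6* and *rca2.2* was not tested. The 4 neutrophil genes reached 95.1 CPM in old replicate 5 and stood at 5.62 to 9.21 CPM in the other 5 libraries. In that library *c6* and *rca2.2* were at 146 and 10.04 CPM, close to their values in old replicate 3. This is 1 library, and the part of neutrophils in the levels of these genes was not tested.

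**Figure D5:**
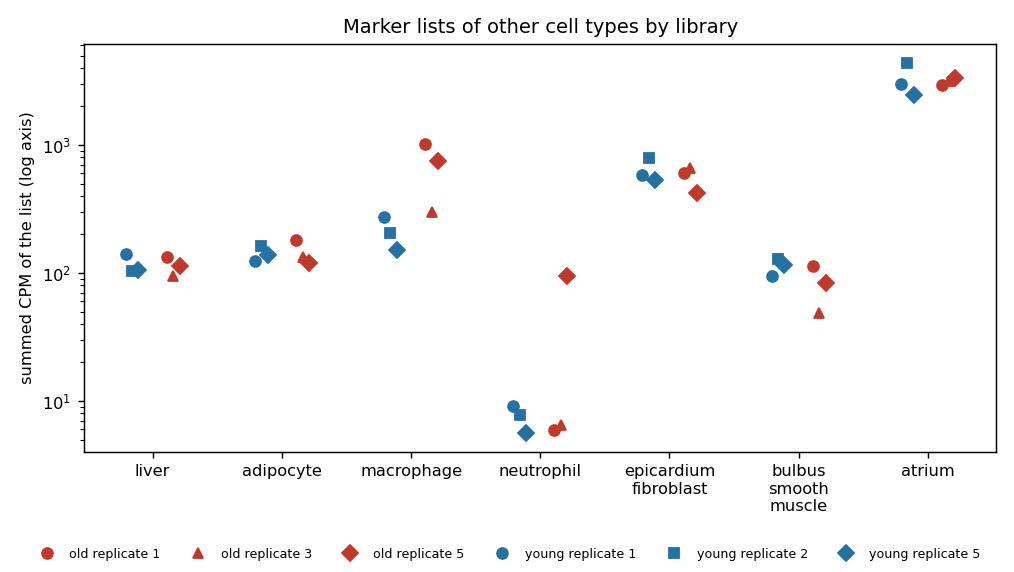
Summed CPM of the marker lists of 7 other cell types (vertical log axis) in each library, with old (red) and young (blue) libraries side by side. The macrophage list was higher in the 3 old libraries, the neutrophil list stood out in old replicate 5 at 95.1 CPM, and the sums of the liver, fat, epicardial, bulbus and atrial lists overlapped between the groups.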

How the data were processed

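RNA-Seq of zebrafish ventricles was analysed from the deposited table of raw counts (whole numbers, not normalized; 32520 genes, 6 columns, 0 columns without a sample). The authors prepared poly(A)-selected strand-specific libraries, aligned single-end reads with STAR 2.5.4b to GRCz11 and counted them on Ensembl genes with featureCounts 1.6.3 by strand, without reads assigned to more than 1 place or gene.

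The 24835 genes with any read were normalized by TMM and tested with edgeR 4.0.16 (quasi-likelihood, legacy deviances, age group as the only factor) in R 4.3.3, with Benjamini-Hochberg adjustment over all tested genes and a threshold of 0.05. Standard errors were derived from the F statistic. A gene was called above the floor when its mean CPM over the 6 libraries exceeded the highest floor of a library (3 counts, 0.161 CPM). The test was checked on simulated data. Alternatives were library size or RLE scaling, a minimum of 10 summed reads, filterByExpr, DESeq2 1.42.0, limma-voom 3.58.1, bias-adjusted deviances, a robust fit, a replicate block and each library left out. No duplicate libraries were found.

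The genes, lists and tests were chosen with earlier results of these data known. All genes of the set, all genes of the list of other terminal genes, and pathway genes past the threshold were named. Of the pathway, *c1qbp*, the genes with a young mean under the floor and those called with the replicate block were added after their values were seen. Of the marker lists, the most abundant gene and genes at or near 0 may be named, with *lcp1* (the single macrophage call), *tfa*, *cidec*, *pparg* and *elnb* added after their values were seen. Symbols came from a table that names 29201 genes, symbols it splits into copies were matched by these copies, and unmatched ones were left out. Sequences are not shown.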

Additional observations from a re-analysis of the deposited data

How the results depend on the processing

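The 6 genes above the floor kept their direction in every alternative run, and *c6* was called in all 15. The 2 calls of the set became 1 (*c6*) with a minimum of 10 summed reads, and 1 to 2 with a library left out. *rca2.2* then had log2 fold changes of 2.54 with that minimum (adjusted p = 0.055), 2.24 without young replicate 1 and 2.63 without young replicate 2, and 2.24 to 2.81 over the libraries left out. DESeq2 added *c7b* (log2 fold change 3.46, adjusted p = 0.033). The 3 calls of the other complement genes became 13 with DESeq2 and 0 to 6 with a library left out, with 0 without young replicate 2, 5 without old replicate 5 and 6 without old replicate 3.

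The count over all genes was 213 (129 higher, 84 lower). It was 225 with library size scaling (181 higher, 44 lower), which moved the median of genes above the floor by 0.18 on the log2 scale, 65 with 10 summed reads, 111 with filterByExpr, 1229 with DESeq2, 94 with limma-voom, 111 with bias-adjusted deviances, and 19 (without young replicate 2) to 412 (without old replicate 1). The cause of these differences was not tested.

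Replicate numbers 1 and 5 occur in both groups, but deviations of same-numbered libraries correlated with -0.05 and 0.03, so they were not taken as pairs. In the fit with a replicate block, old replicate 3 and young replicate 2 have no partner. The age effect of that fit rests on replicates 1 and 5 of each group. With the replicate block, all genes gave 126 calls, the set 1 (*c6*, *rca2.2* at log2 2.63, adjusted p = 0.057) and the other complement genes 6 (*c4* and *c4b* kept, *c1qa*, *c1qb*, *c1qc* and *cfp* added, and *c6.1* lost at adjusted p = 0.15). The ratios of *c6* to *c7a* (6.08 to 6.95), to *cfd* (5.64 to 8.04) and to *rca2.1* (5.06 to 5.79), and of *rca2.2* to *rca2.1* (5.81 to 9.45), had these folds with each library left out, an alternative chosen after seeing the data. Since the old and young ratios did not overlap, their direction could not change there. Genes with few reads (*c5*, *c8a*, *c8b*, *c9*) were limited by depth, and 3 libraries a group limit all tests.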
